A study of Mus musculus with 11 samples.

Results

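The transcripts of 7 genes that carry bile acids through the ileal enterocyte and sense them there were followed in 11 RNA-seq libraries of mouse intestinal organoids. The genes are named members of the pathway. They were Slc10a2, Fabp6, Slc51a, Slc51b, Fgf15, Nr1h4 and Nr0b2, all of them present among the 37310 genes of the count tables. Of the 7, 6 had enough reads to be tested and Fabp6 did not.

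The organoids were grown from intestinal crypts of 2 animals, mouse_283 and mouse_285, and every library carries the genotype Lgr5-EGFP-IRES-creERT2. In that knock-in, a green fluorescent protein and a drug-activated Cre are expressed from the Lgr5 locus, which is active in intestinal stem cells. The labels name no treatment with an activating drug. The early group held 5 libraries, passages 2, 3 and 4 of mouse_283 and passages 2 and 4 of mouse_285. The late group held 6 libraries, passages 11, 12 and 13 of each animal. Animals of 4 and 24 months were used in the study, and no label ties an age to either animal, so a difference between the animals is not a difference between ages here. Passage numbers follow the sample titles; the deposited table names carry numbers 1 higher, which leaves the early and late groups as they are. The labels give small intestine epithelium as the tissue of all libraries, whereas crypts were isolated, per the protocol, from the small intestine's upper and lower parts and the colon; the segment behind each culture is not labelled. Nothing says that the passages of an animal were separate cultures, so p-values measure the spread between these libraries of 2 animals. The labels give no date or batch, and passage cannot be told apart from anything else that changed between the early and late harvests.

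Bile acids are made in the liver, help to absorb fat in the small intestine, and are taken back up mainly in the ileum, its last segment. There Slc10a2, the sodium-dependent bile acid transporter ASBT, brings them into the enterocyte, Fabp6 binds them in the cytosol, and Slc51a with Slc51b, the subunits of the exporter OST alpha-beta, pass them on to the portal blood. Inside the cell, bile acids activate the nuclear receptor FXR, encoded by Nr1h4, which raises transcription of Nr0b2 (the repressor SHP), Fgf15, Fabp6, Slc51a and Slc51b. Fgf15 is a hormone that travels to the liver and lowers bile acid synthesis.

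Total gene counts ran from 15114132 to 28949911 reads per library, so that 3 reads, taken here as the floor of detection, corresponded to 0.0979 to 0.187 CPM (read counts scaled to library size). All levels are CPM after TMM scaling. The sum of 9 small intestinal epithelium markers was 3430 to 4350 CPM in the early and 3450 to 3830 CPM in the late libraries. Of the colon markers, Car1 had 0 reads in every library and Car4 and Hoxb13 stayed under the floor, while the summed list, most of it Slc26a3, a gene the small intestine also expresses, was 12.3 to 84.3 CPM early and 40.3 to 77.7 CPM late. The hepatocyte list summed to 0.515 to 3.11 CPM over all libraries, led by Alb at up to 2.13 CPM, with Fgb and Ahsg at 0 reads. The immune list summed to 2.65 to 8.72 CPM early and 1.86 to 4.24 CPM late, most of it Cd68 (4.69 ± 2.17 CPM early and 2.45 ± 0.951 CPM late), while Ptprc did not exceed 0.0326 CPM. The mesenchyme list summed to 0.0539 to 1.95 CPM early and 0.25 to 0.424 CPM late, led by Col1a1 at up to 0.854 CPM, with Dcn at 0 reads. The libraries of mouse_283 at passages 3 and 4 differed from the rest in base composition. For every 10 points of GC content, expression relative to the mean over libraries was higher by 0.974 (log2) at passage 3 and 0.778 at passage 4, while the slope was -0.407 to 0.199 in the other 9 libraries. Both are early libraries, and counts and calls late against early that they change are given with and without them. Fits without them keep passage 2 as the only early library of mouse_283. That library differed in another way, with 11.7% of reads in no annotated gene, against 3.77 to 6.64% in the others. It also had the highest colon, hepatocyte, immune and mesenchyme sums.

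The upstream sequences of 3 members whose mean level was lower in the late libraries are shown because all 3 are textbook FXR targets. They are RefSeq windows on GRCm38.p6, a later build than the one the reads were aligned to, and run from 250 bases before to 50 bases after the start site, 5′ to 3′ on the gene's own strand. Capitals mark AGGTCA, the nuclear receptor half-site, or TGACCT, the same letters read on the other strand.
Nr0b2, chr4:133553126-133553425, plus strand: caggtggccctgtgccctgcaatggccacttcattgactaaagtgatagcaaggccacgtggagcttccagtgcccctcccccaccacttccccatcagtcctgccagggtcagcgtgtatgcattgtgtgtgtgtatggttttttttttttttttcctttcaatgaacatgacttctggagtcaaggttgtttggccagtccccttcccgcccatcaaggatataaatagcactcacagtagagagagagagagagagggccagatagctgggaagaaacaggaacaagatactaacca
Slc51a, chr16:32487830-32488129, minus strand: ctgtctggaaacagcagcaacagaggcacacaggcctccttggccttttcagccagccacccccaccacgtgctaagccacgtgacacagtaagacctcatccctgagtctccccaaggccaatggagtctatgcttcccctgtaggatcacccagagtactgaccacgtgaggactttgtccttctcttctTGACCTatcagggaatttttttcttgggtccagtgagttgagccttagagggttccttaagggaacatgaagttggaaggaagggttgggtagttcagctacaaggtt
Slc51b, chr9:65422724-65423023, minus strand: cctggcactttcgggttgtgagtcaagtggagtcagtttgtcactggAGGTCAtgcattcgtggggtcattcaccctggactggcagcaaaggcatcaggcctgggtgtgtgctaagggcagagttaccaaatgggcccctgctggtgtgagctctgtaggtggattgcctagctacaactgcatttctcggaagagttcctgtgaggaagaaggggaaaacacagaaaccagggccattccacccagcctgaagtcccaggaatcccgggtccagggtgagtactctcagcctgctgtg
The half-site stands once in the Slc51a window, at -58 to -53 from the start site on the opposite strand, and once in the Slc51b window, at -203 to -198. It is not among the letters of this Nr0b2 window. Another match lies in the Nr1h4 window, at -214 to -209 on the opposite strand. RefSeq windows were matched for 6 of the 7 members, all but Fgf15, so the half-site occurs in 3 of 6, against 16.3% of 32817 windows of 300 bases. The full inverted repeat bound by FXR with its partner RXR, which is the half-site, any 1 base, and the half-site again on the other strand, was found in none of the 6 and in 0.00914% of all windows. Both strands were searched for every motif, and only for its exact letters. Inverted repeats that differ from these letters at any base were therefore not counted. With so few matches over all windows, the absence of the exact repeat from 6 windows says little. The HNF4 motif CAAAGTCCA (0.475% of windows) and the LRH-1 type motif TCAAGGTCA (0.424%), whose last letters are the half-site, were also in none. The CDX motif TTTATG was in the windows of Slc10a2, Fabp6 and Nr1h4 (11.9% of all windows) and the GATA motif AGATAA in that of Nr1h4 (11.2%). These are matches of letters and not shown to be bound sites.

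By reads counted for a single gene, the receptor was the only member at an appreciable level. Per kilobase of the longest annotated transcript, Nr1h4 averaged 12.3 CPM over all libraries, which placed it at the 65.3 percentile of the 14172 genes tested. The other 5 tested members lay between the 5.73 percentile (Slc10a2, 0.201 CPM per kilobase) and the 24.8 percentile (Slc51a, 1.52 CPM per kilobase). In the early libraries the order of mean levels per kilobase was Nr1h4 (13.7 ± 4.72, SD, n = 5), Nr0b2 (2.27 ± 1.01), Slc51a (2.19 ± 1.1), Slc51b (1.21 ± 0.749), Fgf15 (0.362 ± 0.13), Slc10a2 (0.275 ± 0.167) and Fabp6 (0.0491 ± 0.0673). In the late libraries it was Nr1h4 (11.2 ± 1.78, SD, n = 6), Slc51a (0.955 ± 0.278), Fgf15 (0.923 ± 0.594), Slc51b (0.591 ± 0.236), Nr0b2 (0.483 ± 0.169), Slc10a2 (0.138 ± 0.0541) and Fabp6 (0.0547 ± 0.064). Nr0b2 thus went from place 2 to place 5 and Fgf15 from place 5 to place 3. These percentiles and places leave out reads shared with a gene on the other strand. For Slc51b only 133 of 567 reads were counted for it alone. Its level and places could therefore be higher, and the places of other members lower. In the late order neighbours among Slc51a, Fgf15, Slc51b and Nr0b2 lay within 1 SD of each other, and so did Nr0b2 with Slc51a, Slc51a with Slc51b, and Fgf15 with Slc10a2 in the early order.

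**Figure D1:**
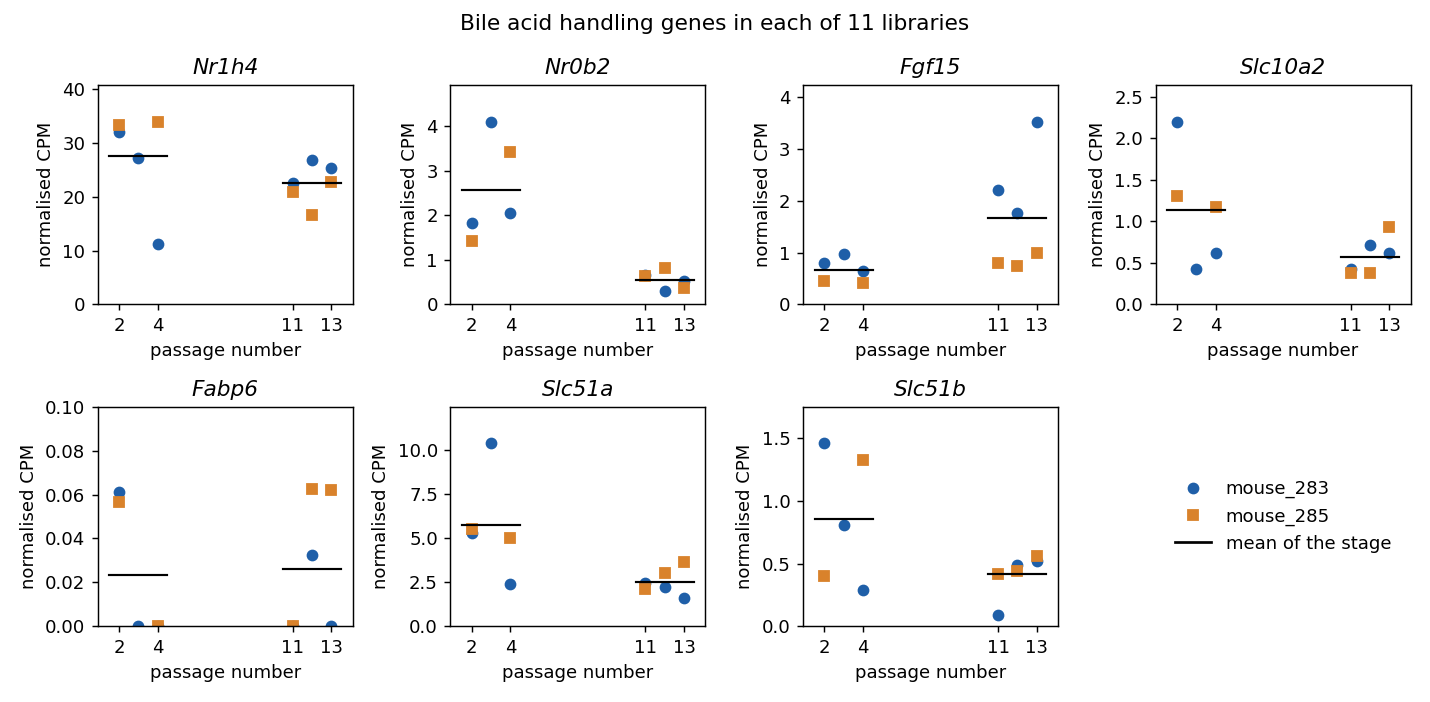
Level of each member in every library, in CPM on an axis of its own per panel, against the passage number of the title, with mouse_283 and mouse_285 as separate symbols and lines at the mean of each stage. Nr0b2 lay at 1.42 to 4.1 CPM in the early and 0.294 to 0.811 CPM in the late libraries, without overlap, while the early and late values of Nr1h4 overlapped.

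Nr1h4 encodes FXR itself. In mouse_283 its level was 32.1, 27.2 and 11.2 CPM at passages 2, 3 and 4 and 22.5, 26.8 and 25.4 CPM at passages 11, 12 and 13. In mouse_285 it was 33.3 and 34 CPM at passages 2 and 4 and 20.9, 16.6 and 22.8 CPM at passages 11 to 13. Passage 4 of mouse_283 was the lowest of all libraries, below every late one, whereas in mouse_285 both early values were above all 3 late values. The late mean of 22.5 ± 3.58 CPM (SD, n = 6) against 27.6 ± 9.5 CPM early (SD, n = 5) gave a log2 fold change of -0.29 (SE 0.26, adjusted p = 0.478, edgeR quasi-likelihood test with Benjamini-Hochberg adjustment over all genes tested), which did not pass. Without passages 3 and 4 of mouse_283 the log2 fold change was -0.60 (SE 0.15) with an adjusted p of 0.0347 by the same edgeR test, so the call for the receptor turns on these libraries.

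Nr0b2 was lower in late passage organoids. Its product SHP is a repressor without a DNA-binding domain that FXR induces. In mouse_283 it stood at 1.83, 4.1 and 2.06 CPM at passages 2, 3 and 4 and at 0.655, 0.294 and 0.517 CPM at passages 11, 12 and 13. In mouse_285 it stood at 1.42 and 3.42 CPM early and at 0.629, 0.811 and 0.372 CPM late. Every late library lay below every early one. The fitted difference was 4.74-fold, a log2 fold change of -2.25 (SE 0.38, adjusted p = 0.0104, edgeR). Between 6 and 76 reads per library lie behind these levels, and the late coefficient of variation of 35.1% was close to the 29.9% that counting alone gives. Over all tested genes, 2.34% were called lower in the late group at the adjusted threshold of 0.05, 3.51% had every late library below every early one, and 5.44% had this within both animals. The call held in each of the 11 fits that left out a library, with log2 fold changes of -2.46 to -1.98 and adjusted p from 0.00604 to 0.048 (edgeR).

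Fgf15 was higher in late passage organoids, at low levels throughout. In mouse_283 the hormone's transcript was at 0.793, 0.971 and 0.65 CPM at passages 2, 3 and 4 and at 2.2, 1.76 and 3.52 CPM at passages 11, 12 and 13. In mouse_285 it was at 0.453 and 0.408 CPM early and at 0.796, 0.749 and 0.993 CPM late. Late values were above early values within each animal, and over both animals they overlapped, since the late libraries of mouse_285 were near the early ones of mouse_283. The log2 fold change was 1.37 (SE 0.31, 2.58-fold, adjusted p = 0.0361, edgeR), where 0.706% of tested genes were called higher and 3.99% had all late libraries above the early ones of the same animal in both animals. This call was not stable. It was kept in 2 of 11 fits that left out a library, those without passage 2 of mouse_283 (adjusted p = 0.0186) and without passage 2 of mouse_285 (adjusted p = 0.0462, edgeR). Of all tested genes, 18.3% were called higher in the first of these fits and 0.769% in the second. Fgf15 missed the threshold in the other 9, with an adjusted p of up to 0.108 (edgeR). Its log2 fold change was 1.15 to 1.46 over the 11 fits. Without passages 3 and 4 of mouse_283 the log2 fold change was 1.25 with an adjusted p of 0.0996 (edgeR).

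Slc10a2, the uptake transporter, was near the lower end of what these libraries could measure, with 6 to 36 reads each. In mouse_283 its level was 2.2, 0.431 and 0.614 CPM at passages 2, 3 and 4 and 0.421, 0.718 and 0.621 CPM late. In mouse_285 it was 1.3 and 1.17 CPM early and 0.377, 0.374 and 0.931 CPM late. In mouse_283 the early values at passages 3 and 4 lay among its late values, and only that at passage 2 was above them. Both early values of mouse_285 were above its late values. The log2 fold change of -0.98 (SE 0.45) did not pass, with an adjusted p of 0.213 in edgeR. With a correction for GC content and transcript length it was -1.36 (SE 0.36) with an adjusted p of 0.039. With DESeq2, limma-voom, RLE scaling or no low-count filter the adjusted p was 0.165 to 0.242. Without passages 3 and 4 of mouse_283 it was 0.0528 (edgeR). None of the 11 fits that left out 1 library passed (adjusted p of 0.183 to 0.391, edgeR). Without passage 2 of mouse_283, the library with the highest level, the log2 fold change was -0.53 (SE 0.42). The Slc10a2 transcript has a GC content of 35.7%, against a median of 50.1% over the tested genes.

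Fabp6, the cytosolic bile acid binding protein and among the most abundant transcripts of ileal enterocytes in vivo, gave 5 reads in all 11 libraries together, 2 in the early and 3 in the late group. No library had more than 1 read, and 6 of 11 had 0. The summed level was 0.022 CPM, with an exact Poisson 95% interval of 0.00714 to 0.0514 CPM that covers counting error only. No difference between the groups was detectable at this depth.

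The exporter subunits had lower late means, and neither passed in the main fit. Slc51a was at 5.31, 10.4 and 2.42 CPM at passages 2, 3 and 4 of mouse_283 and at 2.43, 2.22 and 1.6 CPM at its late passages. In mouse_285 it was at 5.55 and 5 CPM early and at 2.1, 3 and 3.66 CPM late. Only passage 4 of mouse_283, 1 of the 2 libraries with a steep GC slope, lay within the late range of 1.6 to 3.66 CPM. The log2 fold change was -1.23 (SE 0.35, adjusted p = 0.0797, edgeR). The call changed with the setting: without passages 3 and 4 of mouse_283 the log2 fold change was -1.05 with an adjusted p of 0.0314, with the GC and length correction -1.33 with an adjusted p of 0.0392, with DESeq2 -1.24 with an adjusted p of 0.0128, and without the low-count filter -1.18 with an adjusted p of 0.00757. It also passed without passage 2 of mouse_283 (adjusted p = 0.0246) and without passage 4 of mouse_283 (adjusted p = 0.0274), and in none of the other 9 fits that left out 1 library (edgeR). Of all tested genes, 16% were called lower without passage 2 of mouse_283 and 2.34% without passage 4 of mouse_283. The share called lower was 5.99% with DESeq2, 3.26% without the filter and 4.14% with the GC and length correction.

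Slc51b had 2 to 26 reads per library in the unstranded column. In mouse_283 these gave 1.46, 0.809 and 0.289 CPM at passages 2, 3 and 4 and 0.0936, 0.489 and 0.517 CPM late. In mouse_285 they gave 0.397 and 1.33 CPM early and 0.419, 0.437 and 0.558 CPM late. Early and late libraries overlapped, and the log2 fold change of -1.03 (SE 0.52) had an adjusted p of 0.237 in edgeR. Most reads at this gene were not in that column. The 2 strand columns together held 567 Slc51b reads, 4.26 times the 133 of the unstranded column. In GENCODE M21, a later annotation than the build of the files, 91 of the 709 exonic bases of Slc51b overlap Rasl12, a gene on the other strand, and the reads missing from both genes were the same number in each library. Rasl12 was looked up after the values were seen.

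Those 434 shared reads were 312 in the early and 122 in the late group. The libraries carry no strand information, with 50 to 50.2% of gene reads on the first strand, so the shared reads cannot be assigned to Slc51b or to Rasl12. With them included, Slc51b was at 5.79, 5.72 and 1.88 CPM early and 0.983, 1.37 and 1.24 CPM late in mouse_283. In mouse_285 it was at 3.12 and 4.29 CPM early and 1.63, 1.31 and 1.74 CPM late. Early and late values then no longer overlapped, with an early mean of 4.16 ± 1.69 CPM (SD, n = 5) and a late mean of 1.38 ± 0.273 CPM (SD, n = 6). In the unstranded column, 3.51% of tested genes had every late library below every early one. With both strand columns summed for all genes, a setting chosen after seeing the data, the log2 fold change was -1.59 (SE 0.32, adjusted p = 0.0213, edgeR). At that setting 2.38% of tested genes were called lower and 0.783% higher. Rasl12 counted alone in the unstranded column was at 0.552 ± 0.389 CPM early and 0.235 ± 0.189 CPM late. The part of each gene in the lower sum was not tested. Fgf15 also overlaps genes on the other strand, Gm26793 and Gm39119, and had 396 reads in the strand columns against 281 in the unstranded one; its 115 shared reads were 9 early and 106 late. With both strand columns summed, its log2 fold change was 1.79 (SE 0.35, adjusted p = 0.017, edgeR).

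**Figure D2:**
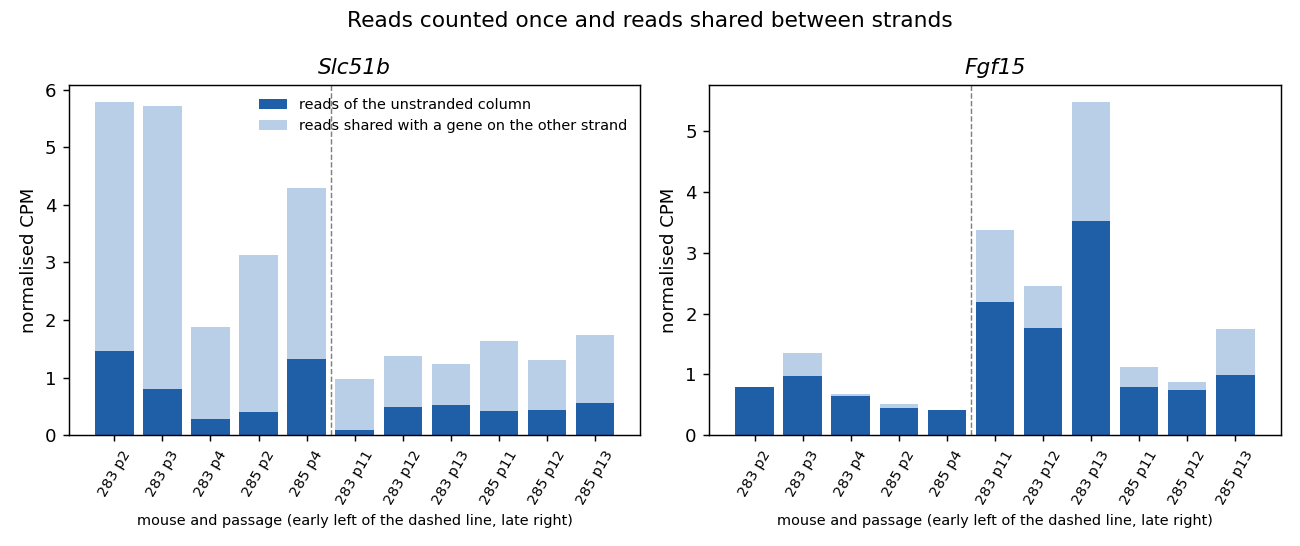
Stacked bars of the level of Slc51b and Fgf15 in each library, in normalised CPM, split into reads of the unstranded column and reads shared with a gene on the other strand, with 5 early libraries left and 6 late libraries right of the dashed line. For Slc51b the shared reads are the larger part in every library, and the summed bars reach 1.88 to 5.79 CPM early and 0.983 to 1.74 CPM late.

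Over the 6 tested members, 1 was called higher and 1 lower, where 3.05% of all tested genes were called in either direction (432 of 14172, 100 higher and 332 lower). With the GC and length correction the split over 13709 tested genes was 421 higher (3.07%) and 567 lower (4.14%). The members had 5 negative log2 fold changes and 1 positive, with a median of -1, against a median of -0.02 and a negative sign in 51.4% of all tested genes. Without passages 3 and 4 of mouse_283, 3 members were called lower (Nr0b2, Slc51a and Nr1h4) and 0 higher. Over all tested genes 3.24% were called lower and 1.35% higher at that setting. With the GC and length correction 3 were called lower (Nr0b2, Slc51a and Slc10a2) and 1 higher (Fgf15). Nr0b2 was in the lower set under each of the settings run.

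**Figure D3:**
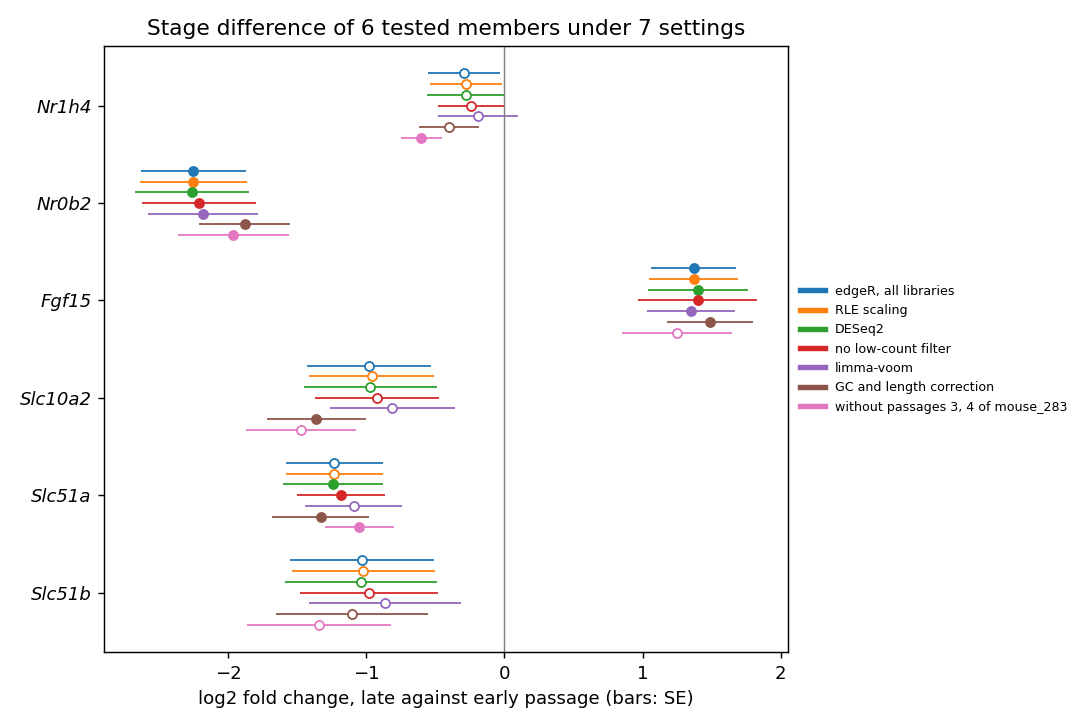
Log2 fold change of late against early passage for the 6 tested members, with bars of 1 SE, under the main edgeR fit and the alternatives named in the key; filled symbols have an adjusted p under 0.05. Nr0b2 is filled and negative in all of them, and Fgf15 is positive in all of them but not always filled.

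The question of whether the animals differed in these genes was put to the same fit. Between mouse_285 and mouse_283 0 of 6 members passed, where 0.0776% of tested genes did. Fgf15 came nearest: it was lower in mouse_285 than in mouse_283 at both stages without overlap (0.91% of tested genes), with a log2 fold change of -1.29 (SE 0.31, unadjusted p = 0.00128, adjusted p = 0.258, edgeR). DESeq2 gave it -1.33 with an adjusted p of 0.0284. For the other 5 members the log2 fold changes were between 0.06 and 0.2, with edgeR adjusted p of 0.903 or more and 95% intervals of which that of Slc51b was widest, at -0.82 to 1.23.

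The passage difference itself was compared between the animals by an interaction term. No member and no other gene passed in edgeR, so percent called was 0, with 302 genes at an unadjusted p under 0.05 and 16 called by DESeq2. The adjusted p of all 6 members was 0.99. Within mouse_283 alone, Nr0b2 passed with a log2 fold change of -2.45 (SE 0.54, adjusted p = 0.0494, edgeR), where 1.42% of tested genes were called. That call stood close to the threshold: without passages 3 and 4 of mouse_283 its adjusted p was 0.0996, and of the 11 fits without a library it passed only in that without passage 2 of mouse_283 (adjusted p = 0.00133), with values up to 0.253. Within mouse_285, 0 genes passed in edgeR (percent called 0, with 762 at an unadjusted p under 0.05 and 74 called by DESeq2), and Nr0b2 had a log2 fold change of -1.99 (SE 0.57, adjusted p = 0.544). For Fgf15 the values were 1.63 (SE 0.4, adjusted p = 0.0795) in mouse_283 and 0.96 (SE 0.5, adjusted p = 0.977) in mouse_285. In mouse_283 it passed with DESeq2 (adjusted p = 0.0115), without a filter (0.0414), with the GC and length correction (0.0262) and without passage 2 of mouse_283 (0.00911). For Slc51a they were -1.52 (SE 0.47, adjusted p = 0.159) and -0.86 (SE 0.51, adjusted p = 0.993, edgeR). In mouse_283 it passed with DESeq2 (adjusted p = 0.0381), without a filter (0.0215), and without passage 2 (0.0129) or passage 4 (0.0465) of mouse_283. Many genes were called within mouse_283 at such settings. The count was 201 in the main fit, 736 with DESeq2, 1446 without a filter and 600 with the GC and length correction. It was 36 to 7703 when 1 library was left out. The passes of Nr0b2, Fgf15 and Slc51a at those settings stand beside these counts. Nr1h4 had opposite signs, 0.08 (SE 0.33) in mouse_283 and -0.74 (SE 0.37) in mouse_285, and the difference of -0.83 had a 95% interval of -1.80 to 0.14. Nr1h4 passed within mouse_285 when passages 3 and 4 of mouse_283 were left out (-0.74, SE 0.17, adjusted p = 0.0471, edgeR).

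The genes whose pattern over the 11 libraries was most like each tested member were taken as the 3 with the highest Pearson r of log2 CPM among genes with a mean of at least 5 CPM. For Nr0b2 they were Tap1 (r = 0.97), a peptide transporter of antigen presentation, Sox13 (r = 0.96), a transcription factor, and Smpd1 (r = 0.96), the lysosomal acid sphingomyelinase. Sox13 averaged 29.2 CPM early and 8.76 CPM late. For Fgf15 they were Ildr1 (r = 0.98), a tricellular junction protein that enteroendocrine cells also express, Syt8 (r = 0.93), a synaptotagmin, and Tspan8 (r = 0.92), a tetraspanin. Ildr1 averaged 14.7 CPM early and 34.3 CPM late, and Syt8 5.91 and 32.9 CPM. For Slc51a they were Apoc3 (r = 0.93), an apolipoprotein, Rdh7 (r = 0.93), a retinol dehydrogenase family member, and Mtch2 (r = 0.92), a mitochondrial outer membrane protein. For Slc51b they were Slco2a1 (r = 0.94), the prostaglandin transporter, Snhg17 (r = 0.92), a long non-coding host transcript, and Ano7 (r = 0.9). Slc10a2 was closest to Entpd7 (r = 0.91), Ndfip1 (r = 0.9) and H2-Q1 (r = 0.88), and Nr1h4 to Maoa (r = 0.9), monoamine oxidase A, Bcar3 (r = 0.87) and Nipal1 (r = 0.87). The libraries share animal, passage group, depth and GC slope, so these are descriptions only. With Spearman's rho in place of r, 2 of the 3 genes were shared for Slc51a, Slc51b and Fgf15, 1 of 3 for Nr0b2 and 0 of 3 for Slc10a2 and Nr1h4.

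The rest of the bile acid pathway was followed by lists of genes by role, whose counts stand beside 2.34% called lower and 0.706% called higher over all tested genes. These shares were 3.24% and 1.35% without passages 3 and 4 of mouse_283. Of 13 receptors and sensors that work beside FXR, 11 were tested and 0 were called in either direction, with a median log2 fold change of -0.24. Among those with the lowest p were Nr1i3 (the receptor CAR), at 16.2 ± 4.45 CPM early and 9.73 ± 2.93 CPM late (log2 fold change -0.74, adjusted p = 0.14, edgeR), Rxra (the partner of FXR, -0.52) and Nr1h2 (the liver X receptor beta, -0.65). The bile acid receptor Gpbar1 did not exceed 0.21 CPM and Rxrg had 0 reads. Of the genes for secretion and reception of Fgf15, none of 3 passed. Malrd1, which promotes its secretion, was at 11.3 ± 4.47 CPM early and 11.4 ± 2.03 CPM late. Its receptor Fgfr4 was at 16.1 ± 11.1 and 9.36 ± 3.28 CPM and the co-receptor Klb at 0.917 ± 0.472 and 1.14 ± 0.441 CPM.

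Of 10 other carriers of bile acids and their conjugates, 6 were tested, with 1 called higher and 1 lower. Abcc4, an exporter of the basolateral membrane, rose from 11.7 ± 4.93 to 24.2 ± 4.31 CPM (log2 fold change 1.09, SE 0.25, adjusted p = 0.0369, edgeR). Slco2b1, an uptake carrier for organic anions, fell from 44.6 ± 11.7 to 23.1 ± 9.79 CPM (-1.06, SE 0.25, adjusted p = 0.0395, edgeR). Abcc3, a further basolateral exporter, was at 234 ± 47 CPM early and 154 ± 44.7 CPM late (-0.59, adjusted p = 0.13), and Abcb1a at 149 ± 87.5 and 263 ± 46.4 CPM (0.82, adjusted p = 0.168, edgeR). In the fits without 1 library, between 0 and 2 of these carriers were called in each direction.

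Of 12 other FXR targets, which include Abcb11 of the carrier list, 10 were tested and 0 were called, with a median log2 fold change of -0.22. Ang alone was called higher when passages 3 and 4 of mouse_283 were left out (1.04, adjusted p = 0.0172, edgeR), and is named after its value was seen. Il18 was called lower with the GC and length correction (-1.06, adjusted p = 0.027, edgeR), and is also named after its value was seen. Pck1 was called lower without the low-count filter (-1.59, adjusted p = 0.0358, edgeR). When 1 library was left out, 0 to 2 of these targets were called lower and 0 higher. In the main fit the lowest p belonged to Nos2 (inducible nitric oxide synthase, -0.84), Pltp (phospholipid transfer protein, -0.95), Pck1 (gluconeogenic, -1.65) and Insig2 (an inhibitor of sterol synthesis, 0.53), with adjusted p from 0.148 to 0.204 (edgeR). Of 14 genes for synthesis and conjugation of bile acids, 10 were tested and 1 was called lower: Hsd3b7, an early enzyme of the pathway, went from 50.6 ± 12.9 to 30.1 ± 2.03 CPM (-0.73, SE 0.17, adjusted p = 0.0388, edgeR). Acox2, a peroxisomal side-chain oxidase, had -0.59 with an adjusted p of 0.0912. Cyp7a1 and Cyp8b1, which act in the liver, had 0 reads in every library. Without passages 3 and 4 of mouse_283, 3 genes of the synthesis list were called lower (Hsd3b7, Acox2 and Akr1d1), and over the fits without 1 library 0 to 2 were.

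**Figure D4:**
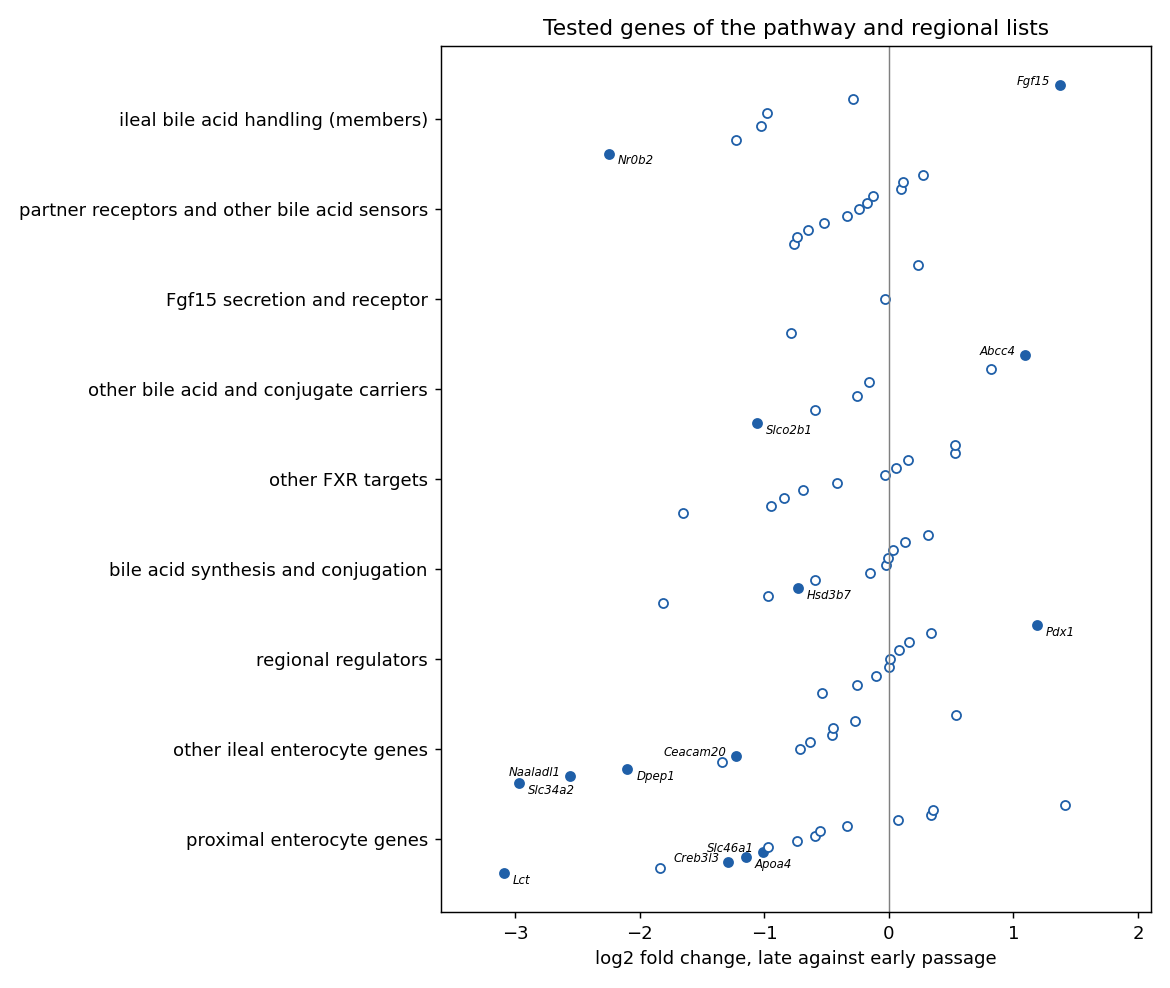
Log2 fold change of late against early passage for each tested gene of the members and of the pathway and regional lists, 1 row per list; filled points have an adjusted p under 0.05 in edgeR and carry the gene's name. Nr0b2 at -2.25 and Fgf15 at 1.37 are the filled members, and 4 ileal and 4 proximal enterocyte genes are filled and negative.

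Since bile acid handling is regional, transcripts that mark the place along the small intestine were set beside the members. Of 13 other genes of the ileal or distal enterocyte, 11 were tested, 4 were called lower and 0 higher, with a median of -0.71, where 2.34% of all tested genes were called lower. With passages 3 and 4 of mouse_283 left out, 5 were called lower. Dpep1, a dipeptidase, fell from 29.9 ± 9.05 to 7.81 ± 3.36 CPM (-2.10, adjusted p = 0.00377). Slc34a2, a phosphate transporter, fell from 7.36 ± 2.64 to 1.41 ± 1.16 CPM (-2.97, adjusted p = 0.00871), Naaladl1, a peptidase, from 84.8 ± 26.7 to 22.1 ± 16.5 CPM (-2.56, adjusted p = 0.00973), and Ceacam20 from 23 ± 5.86 to 9.97 ± 3.01 CPM (-1.23, adjusted p = 0.0191, edgeR). Unlike Fabp6, these 4 genes were well above the floor in the early libraries. Tmigd1 and Fam151a of the same list were, like Fabp6, too low to be tested. They did not exceed 0.113 and 0.0624 CPM. Of 14 proximal enterocyte genes, all were tested, 4 were called lower and 0 higher, with a median of -0.66, against the same 2.34%. With passages 3 and 4 of mouse_283 left out, 7 were called lower and 1 higher. Lct, the lactase, fell from 45.4 ± 5.79 to 11.6 ± 12 CPM (-3.09, adjusted p = 0.0211), and the apolipoprotein Apoa4 from 342 ± 114 to 155 ± 45.5 CPM (-1.15, adjusted p = 0.0327). The folate carrier Slc46a1 (-1.01, adjusted p = 0.0387) and the regulator Creb3l3 (-1.29, adjusted p = 0.0469, edgeR) were called lower as well. Slc40a1, the iron exporter, went the other way, from 48.1 ± 52.6 to 142 ± 132 CPM (1.41, adjusted p = 0.0629, edgeR), and it was the 1 called higher in the fit that lacked those libraries (0.86, adjusted p = 0.0199). It also passed with DESeq2 (adjusted p = 0.00379), limma-voom (0.0319), the GC and length correction (0.0154) and no filter (4.37e-08). It was named after its values were seen. Whether the ileal and proximal lists differed was not tested. When 1 library was left out, 3 to 6 of the ileal and 0 to 7 of the proximal genes were called lower.

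Among 9 regional transcription factors 1 was called higher, where 0.706% of all tested genes were. When passages 3 and 4 of mouse_283 were left out, 2 were, Pdx1 and Gata5 (0.68, adjusted p = 0.0339, edgeR). Pdx1, a factor of the duodenum in vivo, rose from 14.5 ± 9.62 to 32.7 ± 25.8 CPM (1.19, SE 0.23, adjusted p = 0.015, edgeR), and was lower in mouse_285 than in mouse_283 (-2.31, adjusted p = 0.00198, edgeR). Gata4, a factor of the proximal small intestine, was at 297 ± 41.8 CPM early and 247 ± 18.5 CPM late (-0.26, adjusted p = 0.268), Cdx1 at 393 ± 193 and 270 ± 31.3 CPM (-0.54, adjusted p = 0.241), and Onecut2 at 45.2 ± 28.8 and 57.2 ± 19.3 CPM (0.34, adjusted p = 0.591, edgeR).

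Of 8 markers of enterocytes in general, 1 was called lower and 0 higher. It was Anpep, the brush border aminopeptidase N, which fell from 1610 ± 237 to 687 ± 227 CPM (-1.27, adjusted p = 0.0176, edgeR). Without passages 3 and 4 of mouse_283, 5 of the 8 were called lower (Anpep, Sis, Krt20 and Slc15a1 among them), where 3.24% of all tested genes were called lower at that setting. Vil1 (-0.49, adjusted p = 0.0873), Slc15a1 (-1.19, adjusted p = 0.0982) and Sis (-1.05, adjusted p = 0.224, edgeR) came next in the main fit. Of the 8, 6 had negative and 2 positive log2 fold changes. The positive ones were Fabp2, at 127 ± 62.6 CPM early and 147 ± 32.3 CPM late, and Alpi, at 139 ± 79.7 and 163 ± 123 CPM. The summed level of the 8, most of it Anpep and Vil1, was 2970 to 3690 CPM in the early and 1640 to 2120 CPM in the late libraries, without overlap. The sum of the ileal genes was 270 to 468 CPM early and 170 to 238 CPM late, also without overlap, and that of the proximal genes 1450 to 2990 and 1340 to 2340 CPM, with overlap. The part of enterocyte content in the values of Nr0b2, Slc51a and the other members was not tested. In bulk RNA, fewer cells of a type and less RNA per cell cannot be told apart.

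**Figure D5:**
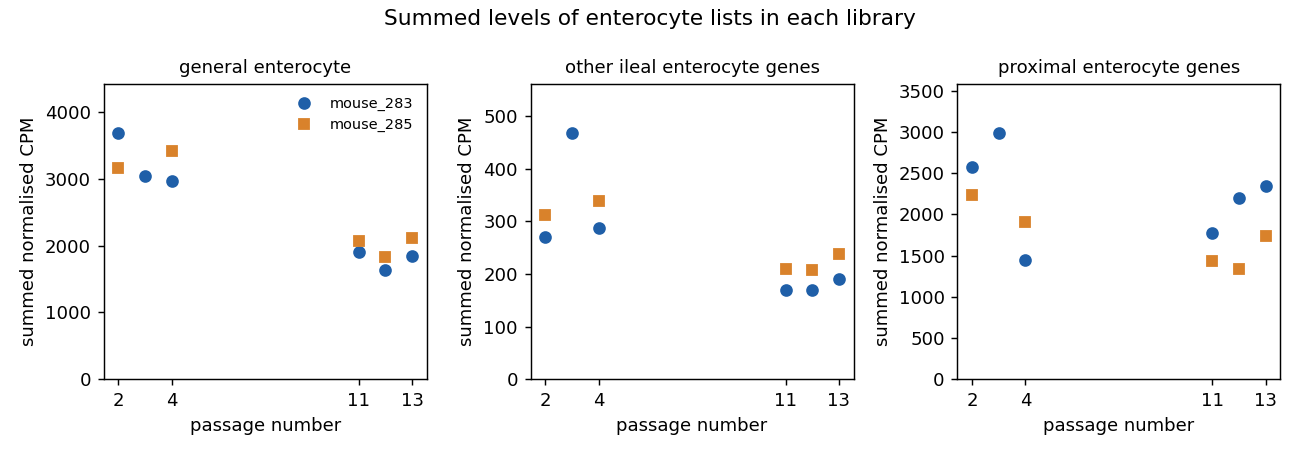
Summed CPM of 8 general enterocyte markers, 13 other ileal enterocyte genes and 14 proximal enterocyte genes in each library against passage number, with 1 symbol per animal. The general sum, most of it Anpep and Vil1, lies at 2970 to 3690 CPM early and 1640 to 2120 CPM late, whereas early and late values of the proximal sum overlap.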

How the data were processed

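RNA was sequenced in 11 libraries of organoids from 2 mice, 5 at early and 6 at late passage. The authors deposited 1 table of raw read counts per gene and library, with an unstranded column and 1 column per strand; Trimmomatic, STAR and mm9 are named in the submitters' processing notes, and versions and annotation are not given in the sources used here. The unstranded counts were used. Summary lines that name no gene stayed out; reads in more than 1 gene were 3.11 to 4.03% of all. Counting drops reads over genes of opposite strands. Such reads lay at Slc51b and Fgf15 and cannot be assigned to them or to the genes on the other strand.

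Genes were filtered with filterByExpr (14172 kept), scaled by TMM and tested in edgeR 4.0.16 (quasi-likelihood) under R 4.3.3, with mouse and stage as terms and Benjamini-Hochberg adjustment over all tested genes at 0.05. The interaction and the differences within each mouse came from a model with both terms and their product. Intervals of 95% on fold changes are normal approximations from the SE. Log2 CPM used a prior count of 2. Alternatives were DESeq2 1.42.0, limma-voom 3.58.1, RLE scaling, no filter, offsets for GC and length (known for 96.7% of tested genes), left-out libraries and no mouse term. Same-animal libraries of different stage had a median correlation of 0.11 after centring, other-animal ones -0.138. No libraries were duplicates (smallest chi-square per degree of freedom 15.1). The test was checked on simulated counts. The labels name no molecular identifiers, so floors and intervals cover counting error only.

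The members and gene lists were chosen with earlier results of these data known. Named were all members, up to 4 tested genes per list with the smallest p, and genes that were not detected or were set beside them; the latter were picked after their values were seen. The values of some listed genes are not reported here.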

Additional observations from a re-analysis of the deposited data

Results flagged for a closer look

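Slc51b at passage 11 of mouse_283 was at 0.0936 CPM, from 2 reads, and lay far below the other 5 late libraries, with a gap to its nearest neighbour of 0.7 of the group's range. Of 14 groups examined 1 stood out in this way, and chance alone gives about 1 in 20. With shared reads included the same library was at 0.983 CPM, against 1.24 to 1.74 CPM in the other late libraries.

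The columns that the main comparison does not use held further reads at 2 members, whose gene of origin is not known. Slc51b had 434 reads shared with a gene on the other strand, against 133 counted for it alone. Fgf15 had 115 such reads, against 281 counted for it alone.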

How the results depend on the processing

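Over all settings run, no member's late against early difference changed sign, and Nr0b2 passed in each. The number of genes called late against early, 432 in the main fit, was 1343 with DESeq2, 1819 without a filter, 988 with the GC and length correction, 651 without passages 3 and 4 of mouse_283, 3977 without passage 2 of mouse_283 and passage 11 of mouse_285 (chosen after seeing the data) and 176 to 4864 when 1 library was left out, the highest without passage 2 of mouse_283. In the same order the count between animals, 11, was 126, 207, 39, 109, 38 and 3 to 73, and 7 with limma-voom. The interaction count, 0, was 16, 65, 1, 4, 1593 and 0 to 2315. The count within mouse_283, 201, was 736, 1446, 600, 799, 7328 and 36 to 7703. The count within mouse_285, 0, was 74, 114, 31, 322, 29 and 0 to 60. The cause was not tested. Members called lower, 1 in the main fit, were 2, 2, 3, 3, 2 and 1 to 2, and 2 with both strand columns summed. Members called higher, 1 in the main fit, were 0 without passages 3 and 4 of mouse_283 and 0 to 1 when 1 library was left out.

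With no replicate block, that is without the mouse in the model, members called higher were 0: Fgf15 had 1.35 with an adjusted p of 0.113 and Nr0b2 -2.23 with an adjusted p of 0.00942 (edgeR), and 83 genes were called higher and 317 lower. The block is the animal, known from the titles.

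Some small differences that never passed changed sign. Between the animals, Slc10a2 had -0.25 with the GC correction, and without passages 3 and 4 of mouse_283 it had -0.36, Slc51b -0.07 and Nr1h4 -0.18; Nr0b2 had -0.08 without passage 2 of mouse_283 and passage 11 of mouse_285. When 1 library was left out the ranges were -0.16 to 0.46 for Slc10a2, -0.1 to 0.49 for Slc51b, -0.11 to 0.18 for Nr1h4 and -0.11 to 0.34 for Nr0b2. The interaction of Slc10a2 was 0.03 with the GC correction, 0.72 without passages 3 and 4 of mouse_283 and -1.32 to 0.06 when 1 library was left out. That of Slc51b was -0.27 without passage 2 of mouse_283 and passage 11 of mouse_285, and -0.38 to 1.4. That of Nr0b2 was -0.07 without passages 3 and 4 of mouse_283, and -0.04 to 1.23. Within mouse_283, Slc10a2 had 0.13 without the pair chosen after seeing the data and -1.2 to 0.16, and Nr1h4 had -0.07 with the GC correction, -0.36 without passages 3 and 4 and -0.25 to 0.38. Within mouse_285, Slc51b ranged from -1.49 to 0.24. Within mouse_283, Nr0b2 had an adjusted p of 0.05 with both strand columns summed. Without passage 2 of mouse_283 and passage 11 of mouse_285, Fgf15 (adjusted p = 0.0146) and Slc51a (0.0144) passed within mouse_283 (edgeR). Depth limits Fabp6, Slc51b, Slc10a2 and Fgf15 most, with 36 reads or fewer in every library for the first 3.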

Other observations

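The exporter OST alpha-beta works as a pair, and the ratio of Slc51a to Slc51b in CPM per kilobase varied from 0.84 to 7.04 over the libraries, with the highest value at passage 11 of mouse_283, where Slc51b rested on 2 reads. Over the 11 libraries Slc51a and Slc51b had a Pearson r of 0.54 in log2 CPM, which was 0.28 after the stage and mouse means were removed. The ratio and this r use only the reads counted for Slc51b alone, 133 of 567. If the shared reads were those of Slc51b, the ratio would be lower in every library. At passage 11 of mouse_283 Slc51b was at 0.983 CPM with them included. The highest r between 2 members was that of Slc51a and Nr0b2, both FXR targets, at 0.74, and 0.30 after removal of these means. Slc10a2 and Nr1h4 had 0.57 over the 11 libraries, 0.54 after removal of the means and 0.84 over the 9 libraries without passages 3 and 4 of mouse_283. Fgf15, also an FXR target, had -0.60 with Nr0b2, and 0.03 after removal of the means. The points share animals, passage group and GC slope, and the values are a description.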
